A study of Rattus norvegicus with 8 samples.

Results

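The renin-angiotensin system was represented by 8 genes of the 22601 genes in each library: *Agt*, *Ace*, LOC102556346, *Enpep*, *Lnpep*, *Agtr1a*, *Mas1* and *Atp6ap2*. They were found by their NCBI GeneID, and all 8 passed the filter on low values, with which 15593 genes were tested. *Ace* and LOC102556346 belong to the set because they were chosen by their levels in these same libraries. The authors had called both genes with DESeq between PTZ and Con. and between Q808 and PTZ. The values of both genes in those comparisons are thus a description and carry no test. The comparison of Q808 with Con. uses the same values and is not independent of this choice. RNA was sequenced from the hippocampus of 8 wild type Wistar rats, with 1 library per rat. Con. rats (n = 3) received saline and then vehicle. PTZ rats (n = 3) were kindled with pentylenetetrazole, an antagonist of the GABA-A receptor that provokes seizures, and then received vehicle. Kindling used 14 sub-convulsive injections of 35 mg/kg at intervals of 48 h over 28 days, together with a dose of 60 mg/kg. Q808 rats (n = 2) had the same PTZ kindling and were then given Q808, an anticonvulsant candidate named by its code, at 30 mg/kg by daily gavage for 28 days. Both kindled groups had a further sub-convulsive PTZ injection on the day after the last gavage. No group received Q808 without PTZ, and the ages of the rats are not given in the sources used here.

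In this system the precursor angiotensinogen, encoded by *Agt*, is cleaved to angiotensin I, and angiotensin-converting enzyme, encoded by *Ace*, removes a dipeptide from it to form angiotensin II. Angiotensin II acts on the type 1 receptor, while aminopeptidases shorten it further, and the peptide angiotensin-(1-7) is the ligand of the receptor encoded by *Mas1*. In the brain, angiotensinogen is made mainly by astrocytes, ACE is known from choroid plexus epithelium, endothelium and striatal neurons, and Mas is known as a receptor of the hippocampus.

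The libraries differed in tissue content in a way that crossed the groups. All 8 marker genes of striatal projection neurons were higher in Con.-3, PTZ-3 and Q808-1 than in any other library, with a mean log2(FPKM + 0.1) of 6.08 to 7.39 in those 3 striatum-rich libraries and of 1.87 to 2.75 in the 5 striatum-poor ones. The list means of the labelled tissue were lower in the striatum-rich libraries, at 2.88 to 3.90 against 4.51 to 4.79 for 5 CA pyramidal neuron markers and at 0.08 to 0.40 against 1.45 to 1.88 for 6 dentate granule cell markers. Single markers did not all follow, since *Calb1* of the dentate list was at 87.7 and 112 FPKM in Con.-3 and PTZ-3 and at 26.0 FPKM in Q808-1, against 66.7 to 87.0 FPKM in the striatum-poor libraries. Of these markers, *Tdo2* was listed at 0 in Con.-2, Con.-3, PTZ-3 and both Q808 libraries, *Lct* in PTZ-3 and Q808-1, and *Fibcd1* in PTZ-3. Choroid plexus markers differed too, with a summed level of 93.0 to 2555 FPKM in Con., 280 to 497 FPKM in PTZ and 165 to 6505 FPKM in Q808, and *Otx2* of that list was listed at 0 in all libraries. FPKM are fragments per kilobase of transcript relative to library size, and the values stood for 11988405 to 16801317 whole reads per library.

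The region before the transcription start is shown for *Ace*, the gene on which the group comparisons turn, and for *Mas1*, on which the comparison of striatum-rich and striatum-poor libraries turns. Both are 250 bases from RefSeq on GRCr8, 5′ to 3′ on the strand of the gene, which is the plus strand for both. Capitals mark GC boxes (GGGCGG) and a TATA box (TATAAA) read on the opposite strand.
*Ace*, chr10:91409879-91410128: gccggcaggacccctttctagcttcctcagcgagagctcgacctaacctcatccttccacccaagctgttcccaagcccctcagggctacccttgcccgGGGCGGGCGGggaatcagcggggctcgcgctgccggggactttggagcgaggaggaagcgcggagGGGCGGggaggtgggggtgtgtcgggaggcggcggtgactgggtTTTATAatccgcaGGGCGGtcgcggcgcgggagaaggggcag
*Mas1*, chr1:50427840-50428089: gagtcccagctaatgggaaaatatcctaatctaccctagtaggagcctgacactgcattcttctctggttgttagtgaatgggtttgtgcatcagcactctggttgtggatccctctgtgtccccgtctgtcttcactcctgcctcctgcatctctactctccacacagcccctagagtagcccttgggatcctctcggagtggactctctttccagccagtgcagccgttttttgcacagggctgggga

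The *Ace* window had a GC content of 69.2% and 23 CpG dinucleotides, against a median of 52.0% and 6 over the 27457 promoters of the table. Its GC boxes begin 151, 147, 86 and 29 bases before the start, the first pair overlapping, and its TATA box begins 42 bases before the start. The *Mas1* window had a GC content of 53.2% and 3 CpG dinucleotides, and none of the 5 motifs searched on both strands lay in it. Of all promoters, 32.4% held a GC box, 13.1% a TATA box, 5.79% the E-box CACGTG, 34.3% the CCAAT box (CCAAT) and 19.0% the CRE core TGACG. Of the 8 genes, 6 matched a promoter in the table. These letter matches are a description and not binding sites.

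*Ace* and LOC102556346, which the files name angiotensin-converting enzyme-like, were lower in the PTZ group than in the Con. group and higher in the Q808 group than in the PTZ group. *Ace* stood at 6.24, 8.34 and 15.5 FPKM in Con.-1, Con.-2 and Con.-3, at 3.81, 3.60 and 6.13 FPKM in PTZ-1, PTZ-2 and PTZ-3, and at 11.5 and 24.5 FPKM in Q808-1 and Q808-2. Every PTZ library was thus below every Con. library and every Q808 library, although PTZ-3 was only just below Con.-1, while Con. and Q808 overlapped. The group means were 10.04 ± 4.88 FPKM (SD, n = 3) in Con., 4.51 ± 1.41 FPKM (SD, n = 3) in PTZ and 17.99 ± 9.25 FPKM (SD, n = 2) in Q808. In bulk tissue, fewer cells of a type and less RNA per cell cannot be told apart.

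LOC102556346 stood at 7.18, 7.62 and 10.6 FPKM in Con.-1, Con.-2 and Con.-3, at 3.29, 2.57 and 7.11 FPKM in PTZ-1, PTZ-2 and PTZ-3, and at 10.1 and 19.0 FPKM in Q808-1 and Q808-2. The order of the groups was the same as for *Ace*, PTZ-3 again lay just below Con.-1, and Q808-2 was again the highest library. The FPKM of LOC102556346 was between 0.682 and 1.16 times that of *Ace* within each library. How reads that match both genes were assigned is not given in the sources used here, so the division of reads between them is uncertain. LOC102556346 is absent from the RefSeq annotation of GRCr8 used here, so its position beside *Ace* is not given.

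**Figure D1:**
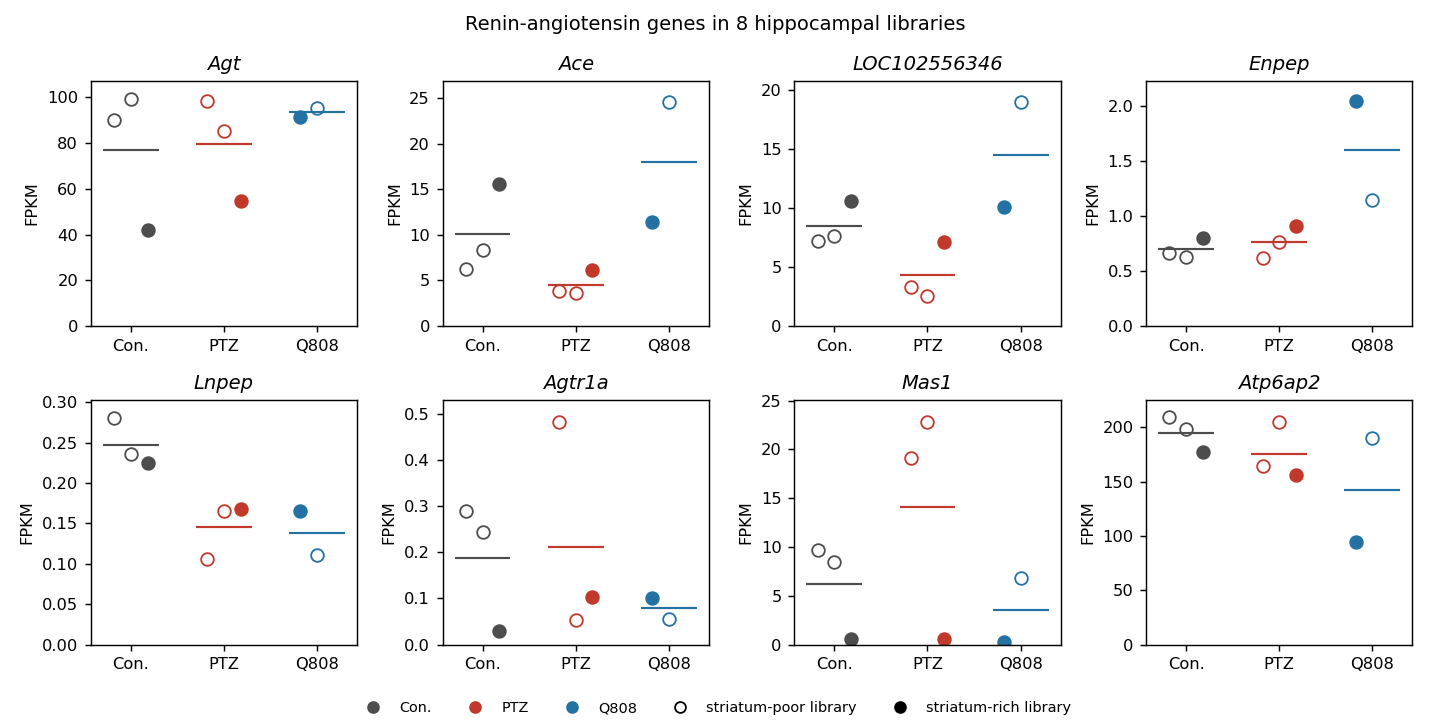
FPKM of the 8 renin-angiotensin genes (y axis, linear, from 0) in each library by group (x axis), with open points for striatum-poor and filled points for striatum-rich libraries and a line at each group mean. The PTZ libraries of *Ace* lie at 3.60 to 6.13 FPKM, below all Con. and Q808 libraries, and the filled points of *Mas1* lie at 0.58 FPKM or less.

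Between PTZ and Con., the fitted log2 change was -1.07 ± 0.37 (SE, limma) for *Ace* and -1.07 ± 0.38 for LOC102556346, 2.10-fold lower for both. Both were called, that is, they passed an unadjusted p-value under 0.05 and a 1.5-fold change, and none of the other 6 genes was. *Ace* and LOC102556346 had been chosen by the authors' call in the same comparison, so the call here carries no test. Among all tested genes 2.53% were called in this comparison, 0.840% as lower in PTZ. The calls of both genes were lost without Con.-3, at -0.71 for *Ace* and -0.90 for LOC102556346, without PTZ-1, at -0.97 and -0.94, and without PTZ-2, at -0.93 and -0.77.

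Between Q808 and PTZ, the log2 change was 1.91 ± 0.40 (SE, limma) for *Ace*, a 3.76-fold higher level in Q808, and 1.79 ± 0.49 for LOC102556346, a 3.46-fold higher level. These were again the only members called, in a comparison that called 1.92% of all tested genes, 1.36% as higher in Q808. Both genes had been chosen by the authors' call in this comparison as well. The change of *Ace* was 1.37 to 2.46 with single libraries left out, and that of LOC102556346 was 1.34 and no longer called without Q808-2. This comparison and that of PTZ with Con. share the 3 PTZ libraries.

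Between Q808 and Con., *Ace* was 0.84 ± 0.49 (SE) on the log2 scale (limma, unadjusted p = 0.142, Benjamini-Hochberg adjusted p = 0.901) and LOC102556346 was 0.72 ± 0.33 (limma, unadjusted p = 0.0744, adjusted p = 0.901). Neither passed the test, and the libraries of both groups overlapped. The Con. and Q808 values of both genes had entered their choice, so this comparison is not independent of it. Without Con.-3, *Ace* was at 1.21 and LOC102556346 at 0.89, and both were called. Without Q808-1 LOC102556346 was called at 1.17, where the 1 remaining Q808 library is assumed to vary like the Con. libraries.

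The order of *Ace* over the libraries is given beside that of the 11 marker lists. Among the 5 striatum-poor libraries, Q808-2 was highest, followed by Con.-2, Con.-1, PTZ-1 and PTZ-2, and the mean log2 level of the choroid plexus list fell in the same order, with 4.59, 3.22, 2.98, 1.03 and 0.53. The thalamus list had this order as well, with 1.85, 1.70, 1.59, 1.57 and 1.27. The endothelial list, at 2.95 in Q808-2, 2.69 and 2.71 in Con.-2 and Con.-1 and 2.63 and 2.20 in PTZ-1 and PTZ-2, and the meningeal fibroblast list, at 1.51, 0.39, 0.86, -0.05 and -0.38, were likewise highest in Q808-2 and lowest in both PTZ libraries. The part of these 4 lists in the result was not tested, apart from a term for the choroid plexus list with 1 slope over all 8 libraries. Of the 10 choroid plexus genes, *Kl*, *Clic6*, *F5*, *Slc4a5* and *Aqp1* had exactly this order, and 9, all but *Otx2*, were highest in Q808-2, lower in both Con. libraries and lowest in both PTZ libraries. *Ttr*, which encodes the carrier protein transthyretin and is the most abundant choroid plexus transcript of the list, was at 6301 FPKM in Q808-2, at 2495 and 2462 FPKM in Con.-1 and Con.-2 and at 399 and 271 FPKM in PTZ-1 and PTZ-2.

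Among the 3 striatum-rich libraries, the order of *Ace* was Con.-3, Q808-1 and PTZ-3, and of the lists only the striatum list had the same order, with means of 7.39, 6.18 and 6.08. The choroid plexus list did not follow *Ace* there, at -0.26 in Con.-3, 0.46 in Q808-1 and 1.57 in PTZ-3. The summed level of the striatum list ranged from 65.4 to 1825 FPKM in Con., 65.1 to 849 FPKM in PTZ and 71.4 to 864 FPKM in Q808, and none of its genes was at 0. With the mean of the choroid plexus list as a term over all 8 libraries, the change of *Ace* was -1.06 between PTZ and Con. and 1.89 between Q808 and PTZ. LOC102556346 was at -0.98, no longer called, and at 1.66. The fit has 1 slope for the list over both sets, although *Ace* rose with the list in the striatum-poor libraries and fell with it in the striatum-rich ones. The part of the choroid plexus list within either set was thus not tested.

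**Figure D2:**
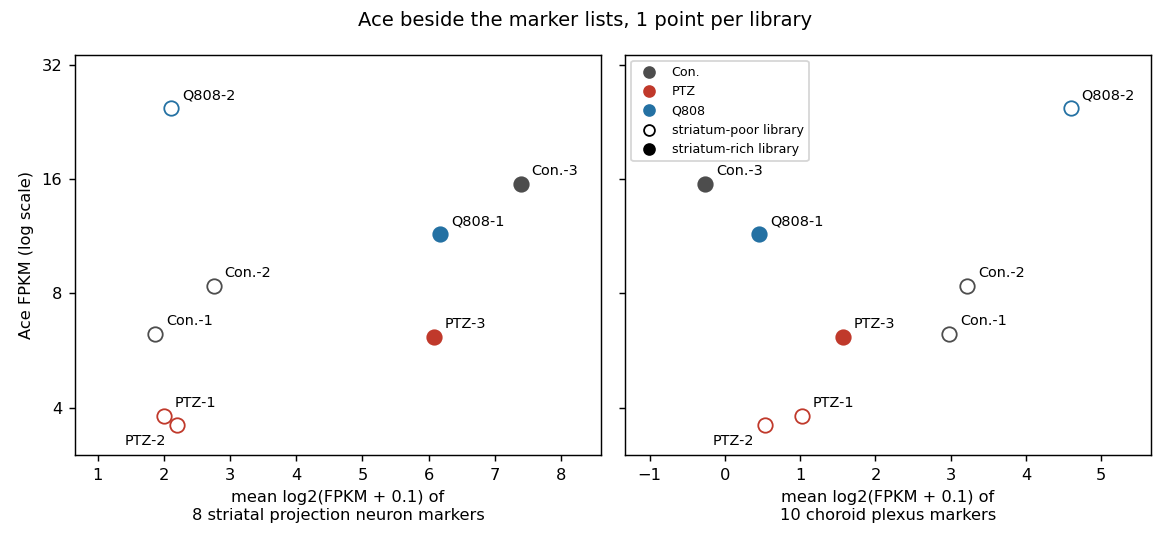
FPKM of *Ace* (y axis, log scale) in each library against the mean log2(FPKM + 0.1) of the striatal projection neuron markers (left) and of the choroid plexus markers (right). In the right panel the open points, the striatum-poor libraries, rise from PTZ-2 (3.60 FPKM) to Q808-2 (24.5 FPKM), while the filled points fall from Con.-3 to PTZ-3.

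Within the striatum-poor libraries alone, *Ace* was lower by a log2 difference of -0.94 in PTZ (n = 2) than in Con. (n = 2), and Q808-2 was above the PTZ libraries by 2.70 and above the Con. libraries by 1.75. LOC102556346 gave -1.32, 2.66 and 1.35 in the same order. Within the striatum-rich libraries, which are 1 per group and allow no test, *Ace* was at -1.33 in PTZ against Con., at 0.89 in Q808 against PTZ and at -0.44 in Q808 against Con. The direction of the difference between Q808 and Con. was thus opposite in the sets, and with 1 Q808 library in each it was not tested.

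Over all 8 libraries, the tested gene with the profile nearest to that of *Ace* was LOC102556346, at a root mean square difference of 0.26 on the centred log2 scale. It was followed by *Insrr*, an insulin receptor-related kinase gene, at 0.44, and by *Sntb2*, *Glb1l* and *Slc13a3*, a dicarboxylate transporter gene, at 0.47 each. *Slc13a3* stood at 3.67, 3.31 and 3.99 FPKM in Con., at 2.37, 1.95 and 4.29 FPKM in PTZ and at 6.37 and 8.01 FPKM in Q808. In the RefSeq gene table of GRCr8, the nearest protein-coding genes on either side of *Ace* are *Cyb561* and *Ace3*, with *Kcnh6* next to *Ace3*. *Cyb561* changed by -0.24 ± 0.17 (SE) in PTZ against Con. and by 0.19 ± 0.26 in Q808 against PTZ on the log2 scale and was not called. *Kcnh6* was at -0.07 ± 0.38 and 0.17 ± 0.41 and was not called either. *Ace3* was above 0 only in PTZ-2 and PTZ-3, at 0.013 and 0.033 FPKM, and was not tested.

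*Agt*, the precursor gene, was abundant and did not pass the test in any comparison. It stood at 90.0, 99.2 and 41.9 FPKM in the Con. libraries, at 98.2, 85.5 and 54.8 FPKM in the PTZ libraries and at 91.6 and 95.4 FPKM in the Q808 libraries, in the order of their numbers. Con.-3 and PTZ-3, both striatum-rich, were the lowest, whereas Q808-1, also striatum-rich, was not, and the groups overlapped. The group means rose in the order Con. (77.0 ± 30.8 FPKM, SD, n = 3), PTZ (79.5 ± 22.3 FPKM, SD, n = 3) and Q808 (93.5 ± 2.66 FPKM, SD, n = 2), with neighbours that did not differ beyond their spread. The log2 change was 0.10 ± 0.37 in PTZ against Con., 0.28 ± 0.27 in Q808 against PTZ and 0.37 ± 0.40 in Q808 against Con. (SE, limma). The astrocyte list, with 6 genes of which none was at 0, had a summed level of 750 to 843 FPKM in Con., 946 to 1035 FPKM in PTZ and 848 to 1199 FPKM in Q808.

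*Enpep* encodes aminopeptidase A, which turns angiotensin II into angiotensin III, and it passed the call in Q808 against Con. at an unadjusted p only. It was measured at 0.67, 0.62 and 0.80 FPKM in the Con. libraries, at 0.62, 0.77 and 0.91 FPKM in the PTZ libraries and at 2.05 and 1.14 FPKM in the Q808 libraries. Both Q808 libraries were above all others, and Con. and PTZ overlapped. The log2 change in Q808 against Con. was 1.04 ± 0.35 (SE), 2.06-fold, with an unadjusted p = 0.0281 and a Benjamini-Hochberg adjusted p = 0.901 in limma, and 3.46% of all tested genes were called in this comparison, 3.07% as higher in Q808. *Enpep* was the only one of the 8 genes called there. The call was lost without Q808-1, at 0.65, without Con.-1, at 1.02, without Con.-2, at 0.97, after quantile normalization, at 0.77, and in the striatum-poor libraries alone, at 0.74 with Q808-2 as the only Q808 library.

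In Q808 against PTZ, *Enpep* was at 0.93 ± 0.41 (SE) with an unadjusted p = 0.0617 and an adjusted p = 0.952 in limma, and in PTZ against Con. at 0.11 ± 0.30. The change between Q808 and PTZ passed the call in 5 of 17 alternatives, at 0.93 with all 3 groups in 1 fit and without a variance trend, at 0.86 with the striatum term, at 1.12 with the choroid plexus term and at 1.33 without Q808-2, which leaves 1 Q808 library. The values rest on 36 to 96 whole reads per library. *Enpep* is known as a pericyte gene in the brain. The 5 pericyte markers, none of which was at 0, had a summed level of 49.7 to 59.1 FPKM in Con., 45.0 to 76.7 FPKM in PTZ and 72.5 to 119 FPKM in Q808, and the 8 endothelial markers of 88.1 to 91.8, 69.4 to 165 and 104 to 190 FPKM. Both lists, like *Enpep*, were highest in Q808-1. The astrocyte, oligodendrocyte and microglia lists were highest there too, with mean log2 levels of 7.03, 9.64 and 4.58. The part of these lists in the result was not tested.

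*Lnpep* encodes the insulin-regulated aminopeptidase that binds angiotensin IV. It was measured at 0.28, 0.24 and 0.22 FPKM in Con., at 0.11, 0.16 and 0.17 FPKM in PTZ and at 0.16 and 0.11 FPKM in Q808, which is 20 to 49 whole reads per library. Every Con. library was above every PTZ and Q808 library, and PTZ and Q808 overlapped. The change did not pass the test, at a log2 change of -0.50 ± 0.33 (SE) in PTZ against Con. (limma, unadjusted p = 0.176, adjusted p = 0.999) and of -0.55 ± 0.37 in Q808 against Con. (limma, unadjusted p = 0.188, adjusted p = 0.901). Groups were fully separated for 3 of the 8 genes in PTZ against Con. (*Ace*, LOC102556346 and *Lnpep*), beside 9.15% of all tested genes. In Q808 against PTZ they were separated for 3 (*Ace*, LOC102556346 and *Enpep*), beside 15.6%. In Q808 against Con. they were separated for 2 (*Enpep* and *Lnpep*), beside 20.0%. *Ace* and LOC102556346 were chosen by the comparisons of PTZ with Con. and of Q808 with PTZ. The counts there hold both by choice and cannot be set against those shares.

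Among the receptors, *Mas1* varied most, with a 101-fold range over the libraries. It stood at 9.69, 8.45 and 0.58 FPKM in Con.-1, Con.-2 and Con.-3, at 19.1, 22.8 and 0.53 FPKM in PTZ-1, PTZ-2 and PTZ-3, and at 0.23 and 6.77 FPKM in Q808-1 and Q808-2. The 3 striatum-rich libraries were the 3 lowest, and among the other 5 the PTZ libraries were above the Con. libraries, which were above Q808-2. Over all libraries the groups overlapped, and the log2 change was 0.76 ± 1.59 (SE) in PTZ against Con., -2.13 ± 1.90 in Q808 against PTZ and -1.36 ± 1.70 in Q808 against Con., none of which passed the test in limma.

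In the striatum-poor libraries alone, *Mas1* was higher in PTZ than in Con. by 1.2 on the log2 scale, in 2 libraries against 2 (limma, unadjusted p = 0.0002, adjusted p = 0.0381). Over 19 alternatives its adjusted p ran from 0.0381 to 1.00, and 9.81% of all tested genes were called among these 4 libraries. With the striatum set as a term over all 8 libraries, the change was 0.76 (limma, unadjusted p = 0.0239, adjusted p = 0.595). In the same 4 libraries the dentate granule cell list was at 1.45 and 1.88 in PTZ against 1.66 and 1.67 in Con., and the choroid plexus list at 1.03 and 0.53 against 2.98 and 3.22. Between Q808 and PTZ, the striatum term gave -1.39 ± 0.31 (SE, limma, unadjusted p = 0.00196, adjusted p = 0.621), which passed the call. The value of -3.81 without PTZ-3 passed it too. That fit sets the striatum-poor PTZ-1 and PTZ-2 against Q808-2 and the striatum-rich Q808-1. Treatment and striatum content cannot be told apart in it. In the main fit the adjusted p was 0.952 (limma). In the striatum-poor libraries alone, the log2 difference of Q808-2 was -1.61 from PTZ and -0.41 from Con.

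*Agtr1a*, the type 1 angiotensin receptor gene, was close to the limit of detection, with 1 to 18 whole reads per library. Its highest values were 0.48 FPKM in PTZ-1, 0.29 FPKM in Con.-1 and 0.24 FPKM in Con.-2, and the other 5 libraries were between 0.03 and 0.10 FPKM. All 3 groups overlapped. The log2 change was 0.02 ± 0.67 (SE) in PTZ against Con., and -0.057 after quantile normalization, so that no direction can be given at this depth. In Q808 it was at -0.57 ± 0.69 against PTZ and at -0.55 ± 0.61 against Con., and neither passed the test.

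*Atp6ap2* encodes a receptor of the system that is also an accessory subunit of the vacuolar proton pump, and it was the most abundant of the 8 genes. It was measured at 209, 199 and 178 FPKM in Con., at 164, 205 and 157 FPKM in PTZ and at 94.8 and 191 FPKM in Q808. Q808-1 was the lowest library by far, the other 7 were within 157 to 209 FPKM, and the groups overlapped. The log2 change was -0.16 ± 0.15 (SE) in PTZ against Con., -0.37 ± 0.32 in Q808 against PTZ and -0.53 ± 0.32 in Q808 against Con., none of which passed the test. Without Q808-1 the change in Q808 against PTZ was 0.13, and without Q808-2 it was -0.88, with -1.04 in Q808 against Con. Both of the latter passed the call, but they compare Q808-1 alone, which is assumed to vary like the other group.

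By mean FPKM over all libraries, *Atp6ap2* lay at the 97.7th percentile of the tested genes and *Agt* at the 94.3rd. *Ace*, *Mas1* and LOC102556346 lay near the middle, at percentiles 58.8, 55.0 and 54.7. *Enpep*, *Lnpep* and *Agtr1a* were low, at percentiles 18.8, 3.99 and 3.53. The median log2 change over the 8 genes was -0.07 in PTZ against Con., 0.11 in Q808 against PTZ and -0.08 in Q808 against Con., beside -0.04, 0.10 and 0.04 over all tested genes, and 4 genes were above and 4 below 0 in each comparison.

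A list of 17 other genes was set beside the members as other pathway genes, of which 14 are annotated to the pathway by KEGG. Of the 17, 10 passed the filter on low values. In the main test none was called between PTZ and Con. or between Q808 and PTZ, and 1 was called in Q808 against Con. That gene was *Anpep*, which encodes aminopeptidase N, the enzyme that forms angiotensin IV. It stood at 0.66, 0.57 and 0.47 FPKM in Con., at 0.56, 0.26 and 1.02 FPKM in PTZ and at 1.27 and 1.01 FPKM in Q808. Both Q808 libraries were above all Con. libraries, Q808-2 was just below PTZ-3, and the log2 change in Q808 against Con. was 0.90 ± 0.31 (SE, limma, unadjusted p = 0.0300, adjusted p = 0.901). The call of *Anpep* was lost with each of the 5 libraries left out in turn. The median log2 change over the 10 tested genes was -0.11 in PTZ against Con., 0.14 in Q808 against PTZ and 0.00 in Q808 against Con.

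*Mme*, whose product neprilysin degrades several neuropeptides and forms angiotensin-(1-7) from angiotensin I, was at 0.67, 0.62 and 6.77 FPKM in Con., at 0.47, 0.35 and 2.06 FPKM in PTZ and at 2.70 and 0.85 FPKM in Q808. The striatum-rich library was the highest of each group, and the groups overlapped. The change in PTZ against Con. was -0.93 ± 1.00 (SE, limma, unadjusted p = 0.384, adjusted p = 0.999). With the replicate number as a block *Mme* passed the call (limma, unadjusted p = 0.0368, adjusted p = 0.779), and the same block called 3.95% of all tested genes. The type 2 receptor gene *Agtr2* had 1 to 3 whole reads in 3 libraries and was listed at 0 in the other 5. *Agtr1b* was above 0 in Con.-1 alone, at 0.079 FPKM, and both genes were under the filter. *Mrgprd*, *Ctsg*, *Cma1*, *Cpa3* and *Klk1* were listed at 0 in all libraries. The remaining tested genes, *Agtrap*, *Nln*, *Thop1*, *Prep*, *Prcp*, *Ctsa*, *Dpp3* and *Rnpep*, were called in none of the comparisons in the main test. With the striatum term, *Agtrap* passed the call in Q808 against PTZ, at 0.60 (limma, unadjusted p = 0.0337, adjusted p = 0.621). That term called 714 of the 15593 tested genes.

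**Figure D3:**
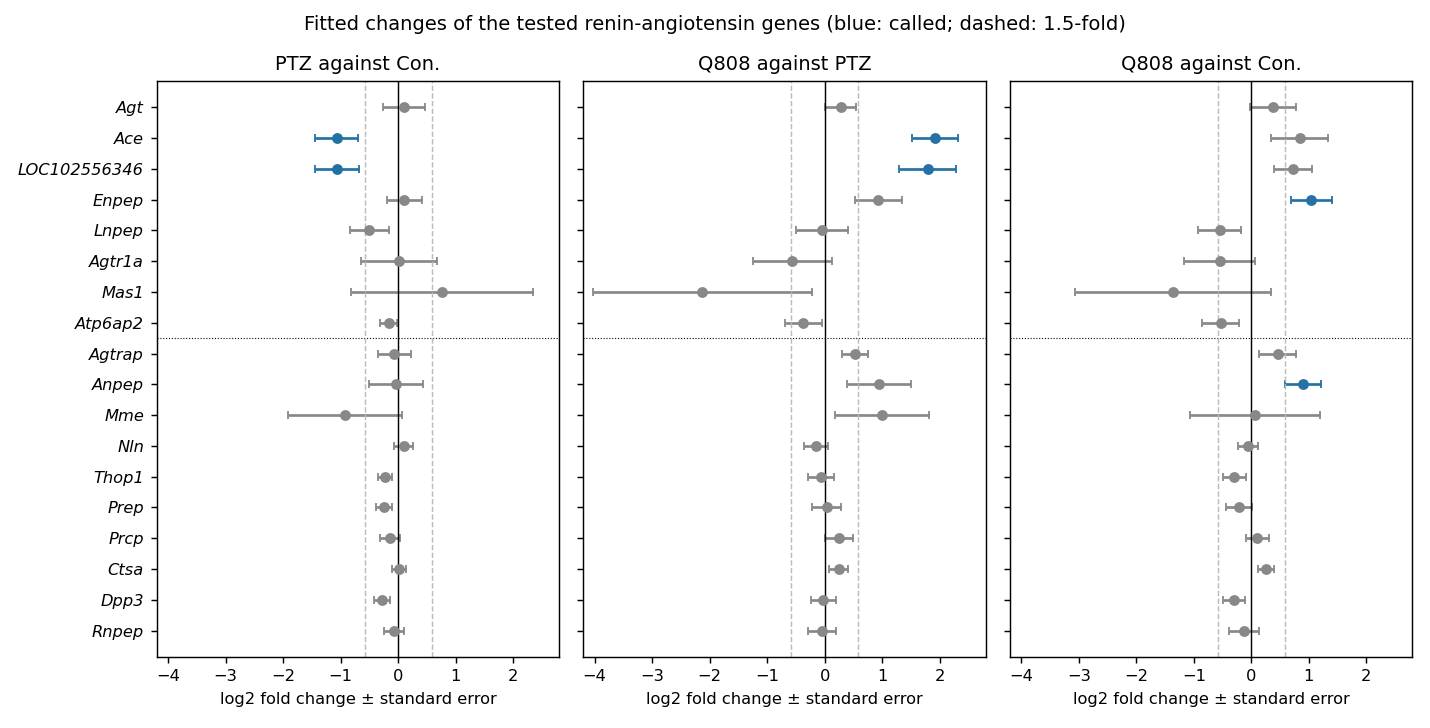
Fitted log2 fold change with its standard error (x axis) of the 8 renin-angiotensin genes (above the dotted line) and the 10 other tested pathway genes in each comparison, with called genes in blue and dashed lines at 1.5-fold. *Ace* and LOC102556346 are at -1.07 in PTZ against Con. and at 1.91 and 1.79 in Q808 against PTZ, and *Enpep* and *Anpep* are the genes called in Q808 against Con.

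Between the striatum-rich and the striatum-poor libraries, *Mas1* was the only one of the 8 genes that was more than 1.5-fold apart with libraries that did not overlap, which held for 15.5% of all tested genes, 5.89% as lower in the striatum-rich ones. The sets were made from the marker levels of the same libraries, so the differences are given with no test. *Mas1* was at 0.23 to 0.58 FPKM in the striatum-rich and at 6.77 to 22.8 FPKM in the striatum-poor libraries, a log2 difference of -4.53, and it was lower within each group, by -3.74 in Con., -5.05 in PTZ and -4.40 in Q808. The profile nearest to that of *Mas1*, chosen after its values were seen, was that of *C1ql2*, at a root mean square difference of 0.45. *C1ql2*, a gene of the dentate granule cell list, was at 3.23 to 5.09 FPKM in the striatum-rich and at 50.6 to 96.7 FPKM in the striatum-poor libraries.

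*Ace* was 0.54 higher in the striatum-rich libraries on the log2 scale, at 6.13 to 15.5 FPKM against 3.60 to 24.5 FPKM. The sets overlapped, and the difference changed sign between the groups, with 1.10 in Con., 0.71 in PTZ and -1.09 in Q808. LOC102556346 behaved likewise, with 0.56 in all and 0.51, 1.26 and -0.91 in Con., PTZ and Q808. *Enpep* was higher in the striatum-rich library of each group, by 0.28, 0.36 and 0.79, and *Atp6ap2* was lower in each, by -0.20, -0.23 and -1.01, but the sets overlapped for both. *Agt* was at -0.65, *Agtr1a* at -0.71 and *Lnpep* at 0.07, all with overlapping sets. The median over the 8 genes was -0.21, beside 0.10 over all tested genes.

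Of the 10 other pathway genes tested, *Mme* was the only one past both limits, and 9.61% of all tested genes were past them as higher in the striatum-rich libraries. *Mme* was at 2.06 to 6.77 FPKM in the striatum-rich and at 0.35 to 0.85 FPKM in the striatum-poor libraries, a log2 difference of 2.37, with 3.21 in Con., 2.09 in PTZ and 1.55 in Q808. *Mme* and *Mas1* thus parted the same sets in opposite directions.

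**Figure D4:**
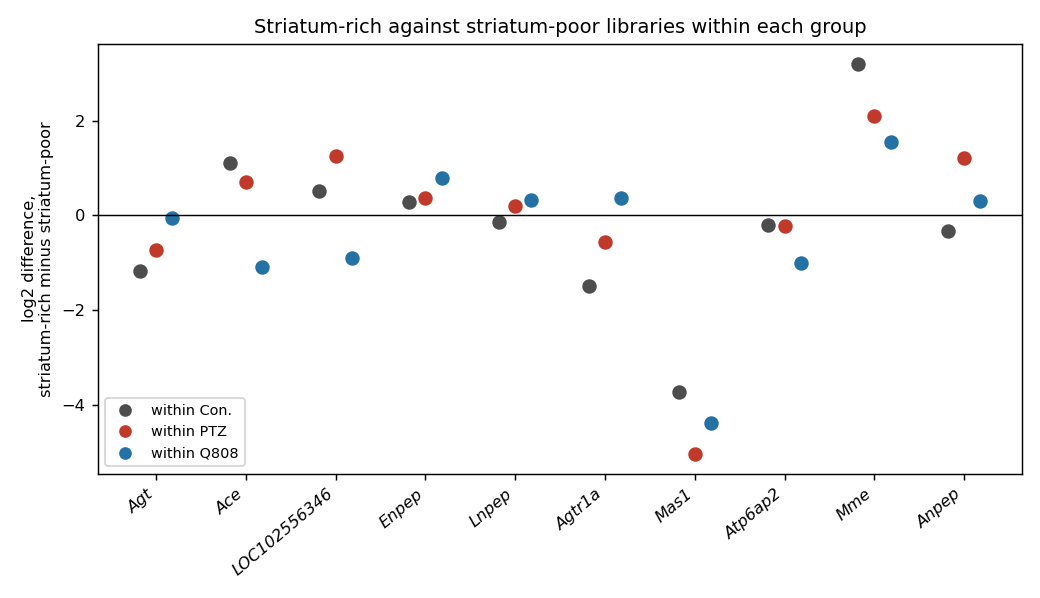
Log2 difference of the striatum-rich library from the mean of the striatum-poor libraries (y axis) within each group, for the 8 renin-angiotensin genes and for *Mme* and *Anpep* (x axis). *Mas1* is at -3.74 to -5.05 and *Mme* at 1.55 to 3.21 in all 3 groups, while *Ace* and LOC102556346 are above 0 in Con. and PTZ and below 0 in Q808.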

How the data were processed

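RNA-seq of 8 rat hippocampi was used, with groups taken from the labels. The authors trimmed reads with Trimmomatic and deposited 1 value per gene in FPKM, and the submitters' processing notes also name HISAT2, Cufflinks and HTSeq. The genome build is not given in the sources used here, and the authors' GO and KEGG annotation was used only to find 35 genes annotated to the renin-angiotensin pathway. Symbols came from the RefSeq table of GRCr8 for 20633 of 22601 genes.

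Each pair of groups was tested by itself in R 4.3.3 with limma 3.58.1 (empirical Bayes with a trend, two-sided) on log2(FPKM + 0.1) over the 15593 genes that reached a mean of 0.1 FPKM. This scale understates changes of low genes. A call needed an unadjusted p-value under 0.05 and over 1.5-fold, with Benjamini-Hochberg adjustment over all tested genes. FPKM times relative depth gave whole multiples of 1 read (tolerance 0.001) for 17728 of 17729 genes above 0 in 2 or more libraries. The multiples hold up to a factor common to all libraries, so read numbers are the fewest that the values allow. For a gene above 0 in 1 library the multiple could not be checked. Multiples were searched up to 60000 reads, so a gene above 0 in only 2 libraries can pass by chance. limma voom on these reads was added after seeing the data. limma was tested on simulated data with known changes.

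Named were the 8 genes, the pathway genes called, parted between the striatum sets or under the filter, and the 5 profiles nearest to *Ace*. *Kcnh6* was named after its values were seen. A pair of further genes of the pathway list is not reported here. Members, marker lists, pathway list and the striatum division were chosen with earlier results of these data known.

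The main test had no pairing, and the numbers in the labels served as a block in an alternative only. The deviations of same-numbered PTZ and Con. libraries from their group means correlated at 0.309, 0.392 and 0.472 over 12563 genes. Con.-3 and PTZ-3 share the striatum-rich set as well as the number. PTZ-3 correlated at -0.251 and -0.523 with the striatum-poor Con.-1 and Con.-2, so number and striatum content cannot be told apart there. Each library is another rat, and PTZ-1 correlated more with Con.-2, at 0.452. The block changed the calls given with it and moved the count over all genes from 395 to 616. Alternatives were other pseudocounts (1 and 0.01), no filter or a mean of at least 1 FPKM, 1 fit over 3 groups, no trend, quantile and median ratio scaling, the block, single libraries left out, striatum-poor libraries alone, and the striatum set or choroid plexus mean as a term.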

Additional observations from a re-analysis of the deposited data

How the results depend on the processing

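Between PTZ and Con. and between Q808 and PTZ, the members called in the main test were *Ace* and LOC102556346. Both had been chosen by the authors' calls in those comparisons, so the counts of members there carry no test. Main counts of called genes were 2 of the 8 genes between PTZ and Con., 2 between Q808 and PTZ and 1 between Q808 and Con., and 0, 0 and 1 of the other pathway genes. With single libraries left out they ran from 0 to 2, 2 to 3 and 0 to 3, and from 0 to 0, 0 to 2 and 0 to 0. Between PTZ and Con., the choroid plexus term left 1 of the 8 genes called, and the striatum term called 1 of the other pathway genes. These terms called 489 and 672 of the 15593 tested genes there. In Q808 against PTZ, the striatum term called 4 of the 8 genes and 1 other (*Agtrap*), beside 714 of all tested genes. The 4 were *Enpep*, *Mas1* and the previously chosen *Ace* and LOC102556346. In Q808 against Con., a mean of at least 1 FPKM, which removes *Enpep*, and quantile normalization left 0 of the 8, the striatum-poor libraries alone, with 1 Q808 library, gave 3 (*Ace*, LOC102556346 and *Agtr1a*, without *Enpep*) and the choroid plexus term 2 (*Enpep* and *Atp6ap2*), while a pseudocount of 1, a mean of at least 1 FPKM, 1 fit over 3 groups, quantile normalization, the striatum-poor libraries alone and both terms left 0 of the others. Voom on the recovered reads called as many as the main test in each comparison.

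With the replicate number as a block, the counts were 2 of the 8 genes and 1 other between PTZ and Con., 3 and 2 between Q808 and PTZ, and 3 and 0 between Q808 and Con. Over all 15593 tested genes the block called 616, 1894 and 1076 in the same order. The members called in each comparison include *Ace* and LOC102556346, so these counts carry no test. In the comparisons with Q808 only 2 numbers are shared, with correlations of -0.439 and 0.416 against PTZ and of -0.463 and 0.661 against Con. In no comparison does the number stand for a known pairing of rats.

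Directions reversed as follows, with the range over single libraries left out given first. In PTZ against Con., *Agt* ran from -0.29 to 0.35 and was at -0.044 in the striatum-poor libraries, *Agtr1a* ran from -0.56 to 0.41 and was at -0.057 after quantile normalization and -0.30 in the striatum-poor libraries, *Enpep* ran from -0.011 to 0.24 and was at -0.013 with the choroid plexus term, and *Mas1* ran from -0.48 to 2.45. In Q808 against PTZ, *Agtr1a* ran from -0.96 to 0.012, *Mas1* from -4.33 to 0.072, *Atp6ap2* from -0.88 to 0.13, with 0.055 in the striatum-poor libraries, and *Lnpep* from -0.22 to 0.12, with 0.016 under the block. In Q808 against Con., *Agt* ran from -0.016 to 0.61, with -0.016 under the block, and *Mas1* from -3.56 to 0.84. The libraries that reversed a direction when left out were Con.-3 and PTZ-1 for *Agt*, *Agtr1a* and *Mas1* in PTZ against Con., PTZ-2 for *Mas1* and PTZ-3 for *Enpep* there, Q808-1 for *Mas1* and *Atp6ap2*, PTZ-1 for *Agtr1a* and PTZ-2, PTZ-3 and Q808-2 for *Lnpep* in Q808 against PTZ, and Con.-3 for *Agt* and Q808-1 for *Mas1* in Q808 against Con. The cause was not tested.

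Between the striatum sets, 1 of the 8 genes was past both limits, 1 to 2 with single libraries left out and 2 after median ratio scaling. The difference of *Mas1* was -3.18 with a pseudocount of 1. Over all genes, 395, 300 and 540 were called in the 3 comparisons, 249 to 1135, 132 to 1569 and 279 to 1799 with single libraries left out. The striatum-poor libraries alone gave 1530 for PTZ with Con. and 1444 for Q808 with PTZ, the striatum term 672 and 714, the choroid plexus term 1274 in Q808 against PTZ and 888 in Q808 against Con., a pseudocount of 1 gave 219 for PTZ with Con. and 340 for Q808 with Con., a mean of at least 1 FPKM 193 in Q808 against PTZ, and the block 616, 1894 and 1076. Quantile normalization moved the split of higher to lower calls from 212 and 88 to 132 and 140 in Q808 against PTZ and from 479 and 61 to 285 and 155 in Q808 against Con. Depth limits *Agtr1a* and *Lnpep*, and 2 Q808 libraries, 1 of them striatum-rich, limit every comparison with Q808.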

Other observations

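The KEGG annotation in the files puts 35 genes in the renin-angiotensin pathway, of which 7 are among the 8 genes described, LOC102556346 being the exception. Besides *C1ql2*, the profiles nearest to that of *Mas1* over the 8 libraries were those of *Bves*, *Ghsr*, *Shisa6* and *Popdc3*, chosen after the values were seen. *Ghsr*, the ghrelin receptor gene, stood at 2.91, 3.33 and 0.02 FPKM in the Con. libraries, at 4.97 and 12.7 FPKM in PTZ-1 and PTZ-2, was listed at 0 in PTZ-3, and stood at 0.08 and 2.85 FPKM in the Q808 libraries. As for *Mas1*, the striatum-rich libraries were the lowest and PTZ-1 and PTZ-2 the highest.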
